A study of Mus musculus with 39 samples.

Results

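Alb, Ttr, Trf, Ahsg and Rbp4 encode 5 carrier proteins of blood plasma, and their transcripts were followed through 39 single cells of adult mouse liver. The 5 genes were taken by symbol from the 10061 gene symbols measured, and their 9 transcript rows, of 13568 in all, were summed for each gene. They were chosen because earlier work on the same values had shown them both in cells with hepatocyte markers and in cells with bile duct markers, so their levels in those cells are given as a description, with no test. Albumin is the most abundant plasma protein and binds fatty acids, bilirubin and many drugs. Transthyretin, from Ttr, carries thyroxine, and it also carries retinol-binding protein, from Rbp4, which takes retinol out of the liver. Transferrin, from Trf, carries iron, and fetuin-A, from Ahsg, binds calcium phosphate and keeps it from precipitating. All 5 proteins are secreted mainly by hepatocytes, whereas cholangiocytes, the epithelial cells that line bile ducts, are known for keratins, mucins and ion transport.

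The cells came from Krt19CreERT/Rosa26CAG-EGFP mice, were sorted for GFP by flow cytometry and were picked one at a time for lysis. In these mice a tamoxifen-inducible Cre recombinase is driven by Krt19, a keratin of bile duct epithelium, so a green cell, or a cell it descended from, is taken to have used that promoter when Cre was active. All 39 cells carry these alleles and form 1 group, with no unlabelled or untreated cells beside them. The labels name no animal, age, inducing dose, sort, plate or sequencing run, so the cells are not replicates of a condition, and every interval printed here covers the counting of cells only.

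Classes of cells were formed from 94 measured cell type markers that included no plasma protein gene, so the 5 carriers took no part in them. The planned clustering separated 6 hepatocyte-like cells, numbers 1 to 4, 38 and 39, from the other 33, with a silhouette of 0.396. A division into 4 clusters, chosen after seeing the data and with a silhouette of 0.367, kept those 6 cells and split the 33 others into 22 cholangiocyte-like cells, 7 cells with mesothelial and fibroblast markers and 4 cells with blood cell markers. A cholangiocyte-like cell had a median of 6 of 16 duct markers at 100 CPM or more (range 2 to 9), against 0.5 (range 0 to 2) in hepatocyte-like cells. The leading genes of the 22 cells were Spp1, Tm4sf4, Cdh1, Hbegf, Krt18, Clu, Krt8, Atf3, Cyr61 and Onecut2. The markers formed the clusters and the leading genes were picked for differing between them, so both only describe the classes. Clustering the same markers by average linkage spread the 22 cells over several clusters. CPM here is the back-transformed deposited value, in which 1 CPM was worth a median of 12.0 reads (range 3.67 to 41.5) in the 37 cells where a read's worth could be read off. In cells 38 and 39, both hepatocyte-like, the depth is unknown. A level of 100 CPM, used throughout, therefore stood for at least 367 reads in each of the 37 cells. The ribosomal RNA precursor Rn45s took 8.42% to 31.2% of the summed values in the 33 cells and 0.383% to 1.22% in the hepatocyte-like cells, and its part in the differences between those cells was not tested.

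Promoter windows of Alb, Ahsg and Rbp4, the 250 bases before the start, were taken from RefSeq (assembly GRCm38.p6). These 3 genes are shown because the source used held no window for Ttr or Trf, and not for their level. Capitals mark 3 motifs searched on both strands, which did not overlap each other. They were GTTAAT, the CCAAT box and the TATA-box letters TATAAA. The Alb window lies at chr5:90460620-90460869 on the plus strand, the Ahsg window at chr16:22891765-22892014 on the plus strand, and the Rbp4 window, for the start of its main transcript, at chr19:38124812-38125061 on the minus strand.
Alb: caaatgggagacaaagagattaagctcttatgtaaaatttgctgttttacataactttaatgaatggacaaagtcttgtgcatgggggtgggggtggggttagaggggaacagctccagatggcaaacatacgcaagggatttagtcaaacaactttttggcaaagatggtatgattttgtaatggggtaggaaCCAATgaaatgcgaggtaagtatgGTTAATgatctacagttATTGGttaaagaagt
Ahsg: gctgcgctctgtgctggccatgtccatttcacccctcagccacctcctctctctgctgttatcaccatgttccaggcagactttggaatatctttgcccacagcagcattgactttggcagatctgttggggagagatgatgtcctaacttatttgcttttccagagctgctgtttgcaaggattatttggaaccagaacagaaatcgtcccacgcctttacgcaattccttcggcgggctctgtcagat
Rbp4: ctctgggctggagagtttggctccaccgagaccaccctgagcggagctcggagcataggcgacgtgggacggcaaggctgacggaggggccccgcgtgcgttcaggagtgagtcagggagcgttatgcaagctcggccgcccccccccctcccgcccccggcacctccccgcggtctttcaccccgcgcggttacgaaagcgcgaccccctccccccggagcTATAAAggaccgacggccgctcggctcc
The Alb window held GTTAAT with its first base 32 bases before the start (-32), a CCAAT at -56 and the reverse complement of CCAAT at -15. The Rbp4 window held TATAAA at -28, and the Ahsg window held none of the 3. Among 32851 RefSeq windows of the same length, 6.43% held GTTAAT, 33.8% CCAAT and 12.4% TATAAA. Positions are counted from the RefSeq start. The nearest GENCODE start was 27 bases away for Alb, 22 for Ahsg and 17 for Rbp4, and positions from it were not worked out. A match is a description of these letters only.

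Albumin transcripts were at high level in part of the duct-marked cells and close to 0 in those with mesothelial and fibroblast markers. Alb reached 100 CPM in 13 of 22 cholangiocyte-like cells (59.1%, 95% interval 36.4% to 79.3%), in 0 of 7 cells with mesothelial and fibroblast markers (interval up to 41.0%), in 1 of 4 cells with blood cell markers and in 6 of 6 hepatocyte-like cells. Among all 10061 genes, 17.5% reached 100 CPM in at least 4 of the 22 cholangiocyte-like cells and 4.35% in at least 4 of the 6 hepatocyte-like cells, shares that are given for scale only because the 5 genes were chosen on these values.

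In the cholangiocyte-like cells the lowest Alb level was 0, the median 1506 CPM and the highest 20694 CPM, in cell 21. In the hepatocyte-like cells Alb was at 13202, 46892, 39190.0, 24022, 30035 and 14267 CPM in cells 1, 2, 3, 4, 38 and 39. In the values as deposited, the 2 classes overlapped in cells 17 and 21, whose 16056 and 20694 CPM lay above the lowest hepatocyte-like cell. The other 20 cholangiocyte-like cells were below all 6. The lowest hepatocyte-like cell, number 1, had values summing to 801076 CPM, against 1434731 and 1238441 in cells 17 and 21. Overlap after scaling the cells to a common sum was not tested for Alb or the other carriers. The median over cholangiocyte-like cells was 0.0557 of that over hepatocyte-like cells.

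The Alb values of cholangiocyte-like cells fell into a low and a high set. Cells 9, 11, 12, 13 and 34 were listed at 0, and cells 19, 20, 24 and 25 had 4.69, 4.19, 3.09 and 0.888 CPM, which came to 41, 62, 18 and 11 reads. No cholangiocyte-like cell lay between these 9 and the 564 CPM of cell 18, or 7482 reads. Over 39 cells the values nearest the level were 23.0 CPM in cell 29 and 292 CPM in cell 33, both with blood cell markers. Cell 33 had 8 macrophage and 0 granulocyte markers at 100 CPM. Cells 29, 32 and 36, the others of that class, had 8, 8 and 5 granulocyte markers and 0 macrophage markers. In the 7 cells with mesothelial and fibroblast markers Alb was at 0 in 6, and the remaining one, cell 37, had 1 read.

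**Figure D1:**
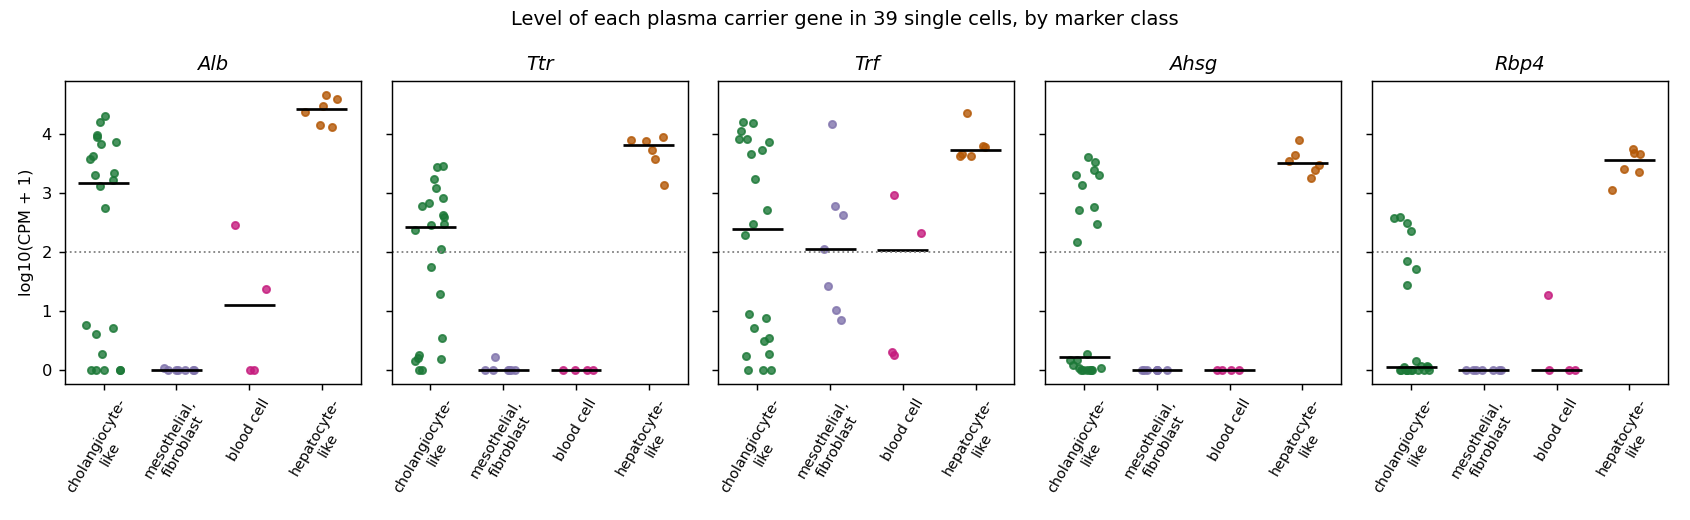
Level of each of the 5 genes in each cell, as log10(CPM + 1), with cells grouped by marker class and jittered sideways; the black bar is the class median and the dotted line marks 100 CPM. Alb, Ttr and Ahsg reached the line in 13, 13 and 10 of 22 cholangiocyte-like cells and in 0 of 7 cells with mesothelial and fibroblast markers, whereas Trf reached it in 12 and 4.

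Transthyretin was present in as many cholangiocyte-like cells as albumin, but the cells were not all the same ones. Ttr reached 100 CPM in 13 of 22 cholangiocyte-like cells (59.1%, interval 36.4% to 79.3%), in 0 of 7, in 0 of 4 and in 6 of 6 hepatocyte-like cells. Its level in cholangiocyte-like cells was 0 at the lowest, 261 CPM at the median and 2890.1 CPM at the highest, in cell 15. In the hepatocyte-like cells it was at 9026, 7573, 5512, 8066, 3804 and 1393 CPM in cells 1, 2, 3, 4, 38 and 39. As deposited, cholangiocyte-like cells 13, 15 and 21 lay above the lowest hepatocyte-like cell, which was cell 39. The others lay below all 6. The values of cell 39 summed to 351255 CPM, the lowest sum of any cell, against 936772, 1625437 and 1238441 in cells 13, 15 and 21. This overlap was not tested after scaling the cells to a common sum.

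In 4 cholangiocyte-like cells Ttr was the carrier at 100 CPM and the other 4 genes were not. These were cell 9 with 237 CPM, cell 11 with 1224 CPM, cell 12 with 823 CPM and cell 13 with 1769.9 CPM, or 1934, 18707, 11377 and 35019 reads. Alb, Ahsg and Rbp4 were listed at 0 in all 4 of them, and Trf had 7 reads in cell 9 and was at 0 in cells 11, 12 and 13. The 4 cells also held Krt19 at 196, 271, 813 and 1333 CPM and Spp1 at 534 to 13583 CPM. They are the only cholangiocyte-like cells among numbers 5 to 13, where Alb was at 0 in 9 of 9 cells. Clustering by average linkage put them together with cells 5, 6, 7, 8 and 10, which had mesothelial and fibroblast markers. Krt19 was at 324, 96.3, 1090, 127 and 457 CPM in those cells, in that order, whereas Spp1 was at 6.52 CPM or less there. The part of a batch in the pattern of the carriers was not tested. Around the level, Ttr had 54.8 CPM in cell 16 and 110 CPM in cell 22.

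Retinol-binding protein, the partner of transthyretin in plasma, was the least shared of the 5. Rbp4 reached 100 CPM in 4 of 22 cholangiocyte-like cells (18.2%, interval 5.19% to 40.3%), in 0 of 7, in 0 of 4 and in 6 of 6 hepatocyte-like cells. The 4 cells were 14, 22, 30 and 31, with 305, 391, 223 and 372 CPM, and in each of them Alb, Ttr and Ahsg were at 100 CPM too. In the hepatocyte-like cells Rbp4 was at 5633, 4677, 4763, 2549.9, 2249.8 and 1124 CPM in cells 1, 2, 3, 4, 38 and 39. The 2 classes did not overlap for this gene.

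Below the level, cholangiocyte-like cells 28, 16 and 27 had 68.8, 50.2 and 26.7 CPM of Rbp4, or 602, 404 and 321 reads, and the other 15 were at 0.416 CPM or less. All 4 cells in which Ttr stood alone had Rbp4 at 0. Over the 10 cells at 100 CPM, 1 of the 2 Rbp4 transcripts held at least 96.2% of the gene's value.

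Transferrin transcripts were present in cells of every class. Trf reached 100 CPM in 12 of 22 cholangiocyte-like cells (54.5%, interval 32.2% to 75.6%), in 4 of 7 cells with mesothelial and fibroblast markers (57.1%, interval 18.4% to 90.1%), in 2 of 4 cells with blood cell markers and in 6 of 6 hepatocyte-like cells. It was above 0 in 36 of the 39 cells, and the 3 cells at 0, numbers 11, 12 and 13, were all cholangiocyte-like. Among cells with mesothelial and fibroblast markers, cell 37 had 14771 CPM, or 184551 reads, and cells 5, 6, 7, 8, 10 and 35 had 9.31, 25.9, 433, 601, 6.07 and 111 CPM. Alb was at 1 read in cell 37 and the other 3 genes were listed at 0 there. Cells 32 and 33, with blood cell markers, had 213 and 927 CPM.

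In the cholangiocyte-like cells Trf ran from a low of 0 through a median of 244 CPM to a high of 16102 CPM in cell 28. In the hepatocyte-like cells it was at 4239.7, 22745, 6019.97, 6436, 4617 and 4362 CPM in cells 1, 2, 3, 4, 38 and 39. In the values as deposited, overlap was wider than for any other of the 5 genes. Cells 15, 16, 17, 21, 25, 28, 30 and 31, which are 8 of 22, lay above the lowest hepatocyte-like cell. In 3 cholangiocyte-like cells Trf was the carrier at 100 CPM and the other 4 genes were not. Of these, cell 25 had 8211 CPM, or 101754 reads, with 11 reads of Alb, while cells 19 and 20 had 191 and 297 CPM.

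Fetuin-A marked a narrower set of duct cells. Ahsg reached 100 CPM in 10 of 22 cholangiocyte-like cells (45.5%, interval 24.4% to 67.8%), in 0 of 7, in 0 of 4 and in 6 of 6 hepatocyte-like cells. Each of the 11 cells with mesothelial, fibroblast or blood cell markers was listed at 0. In cholangiocyte-like cells the lowest level was 0, the median 0.658 CPM and the highest 4082 CPM, in cell 30. In hepatocyte-like cells it was at 3005, 7968, 4429, 2506, 3558 and 1797 CPM in cells 1, 2, 3, 4, 38 and 39. As deposited, cells 21, 27, 28, 30 and 31 lay above the lowest of those, cell 39. The values of cell 39 summed to 351255 CPM. In cells 21, 27, 28, 30 and 31 the sums were 1238441, 1042188, 1363076, 626358 and 785068 CPM. Whether the overlap remained after scaling to a common sum was not tested.

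Of the 5 genes Ahsg had the clearest gap between low and high cells. No cell of the 39 lay between the 0.860 CPM of cell 24, which was 5 reads, and the 150.0 CPM of cell 22, which was 867 reads. The gene has 4 transcripts in the table, and the transcript with the highest share in hepatocyte-like cells held 27.6% to 96.1% of the gene's value there. In cholangiocyte-like cells the same transcript held 99.9% in cell 27, 93.5% in cell 28 and 65.5% in cell 14, whereas another held 99.99803% in cell 22 and 99.4% in cell 26. These transcripts share most of their sequence, so the division of reads between them is uncertain.

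Several carriers were high together in some cholangiocyte-like cells. Of the 22 cholangiocyte-like cells, 2 had none of the 5 genes at 100 CPM, 9 had 1, 1 had 2, 2 had 3, 5 had 4 and 3 had all 5. At least 3 were at that level in 10 cells (45.5%, interval 24.4% to 67.8%), numbers 14, 15, 16, 17, 21, 22, 27, 28, 30 and 31, and the count was 10 of the 33 cells outside the hepatocyte-like class (30.3%, interval 15.6% to 48.7%). In that order, the 10 cells had 5, 8, 3, 3, 8, 6, 5, 4, 5 and 2 of 16 duct markers at 100 CPM, beside a class median of 6. Cells 31, 16, 17 and 28 were the lowest of the class in this count. Cells 14, 30 and 31 held all 5 carriers. Cell 14 had 9804 CPM of Alb, 614 of Ttr, 509 of Trf, 304 of Ahsg and 305 of Rbp4. Cell 31 had 1695, 682, 15537, 2006 and 372 CPM of the same genes. Per kilobase of transcript, Alb was highest of the 5 in cell 14 and Trf in cell 31.

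The genes were nested in part. All 10 cholangiocyte-like cells with Ahsg at 100 CPM were among the 13 with Alb, and all 4 with Rbp4 were among the 10 with Ahsg. Ttr and Alb shared 9 of their 13 cells each, and Trf and Alb shared 9 of the 12 and 13. In cells 18 and 23 Alb was the carrier at 100 CPM and the other 4 genes were not, with 564 and 2189.6 CPM of Alb. Cells 24 and 34 held none of the 5 at that level, with Trf at 4.13 and 6.73 CPM.

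Over the 22 cells the 10 pairs of genes had a median Spearman coefficient of 0.52, with the lowest at 0.04 for Ttr and Ahsg and the highest at 0.72 for Ahsg and Rbp4. Without Ttr the 6 remaining pairs ran between 0.46 and 0.72 with a median of 0.61. Alb and Ahsg stood at 0.67 and Alb and Trf at 0.57, against 0.19 for Alb and Ttr. The points share the library preparation and differ in depth, and many are tied at 0, so the coefficients are descriptions of these cells.

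**Figure D2:**
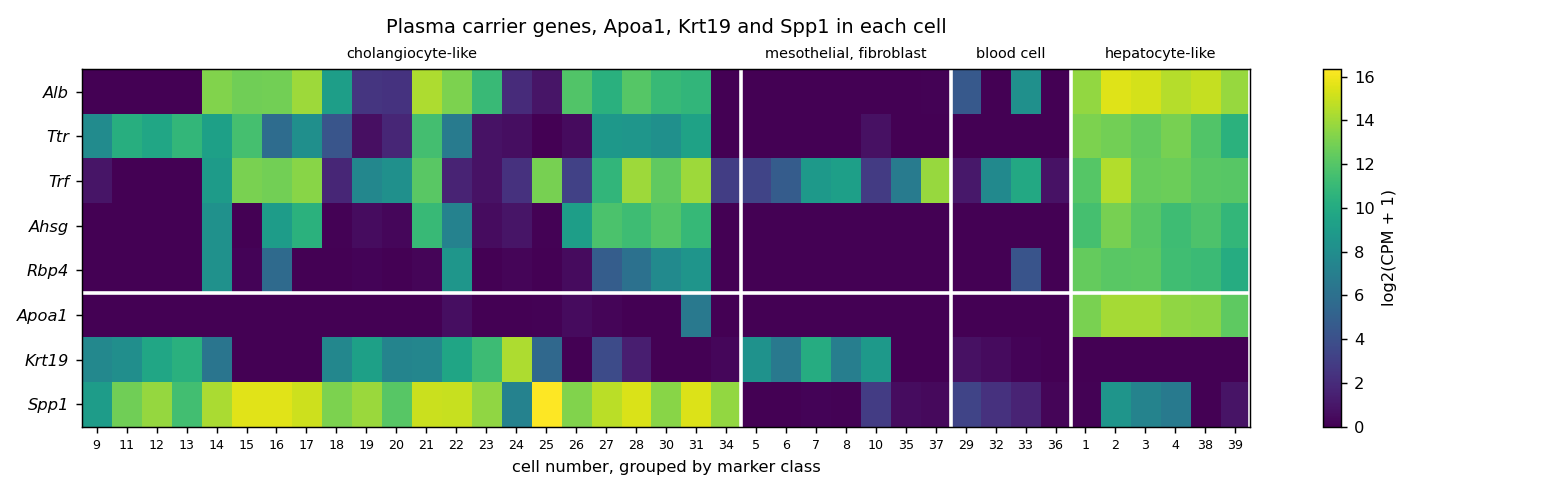
Level of the 5 genes, Apoa1, Krt19 and Spp1 in each of the 39 cells as log2(CPM + 1), with 1 column for each cell and white lines between marker classes. Cells 9, 11, 12 and 13 show Ttr without Alb, cells 14, 30 and 31 show all 5 carriers, and Apoa1 reaches 100 CPM in the 6 hepatocyte-like cells alone.

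Among duct cells that held albumin, transferrin and fetuin-A stood higher relative to it in some than in any hepatocyte-like cell. Ratios were taken in the 13 cholangiocyte-like cells with Alb at 100 CPM, so the 9 others have none here. Those 9 include cells 9, 11, 12 and 13, with Ttr at 237 to 1769.9 CPM and Alb at 0, and cell 25, with Trf at 8211 CPM and 11 reads of Alb. Within a cell the ratio of 2 genes does not depend on the scaling of that cell. In the 13 cells, Trf over Alb had a median of 0.700 and ran between 0.00023 and 9.17, against 0.287 (0.154 to 0.485) in hepatocyte-like cells. Of the 13 cells 7 were above that hepatocyte-like range, 5 were below it and 1 was inside. The ratio, in CPM and not corrected for length, was 9.17 in cell 31, 3.83 in cell 28 and 2.62 in cell 30.

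Ahsg over Alb had a median of 0.0872 and reached 2.52 in the cholangiocyte-like cells, against 0.122 (0.104 to 0.228) in the hepatocyte-like cells, with 4 cells above that range, 8 below and 1 inside. The 4 above were cells 27, 28, 30 and 31. In the same 13 cells, Ttr over Alb had a median of 0.0627, against 0.151 (0.0976 to 0.684), with 5 cells inside the range and 8 below. Rbp4 over Alb had a median of 0.00675, against 0.103 (0.0749 to 0.427), with 2 cells inside, numbers 30 and 31, and 11 below. Apoa1, which encodes the chief apolipoprotein of high-density lipoprotein, had a highest ratio to Alb of 0.0560 in the same 13 cells, against 0.349 to 0.643 in hepatocyte-like cells, and all 13 were below.

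**Figure D3:**
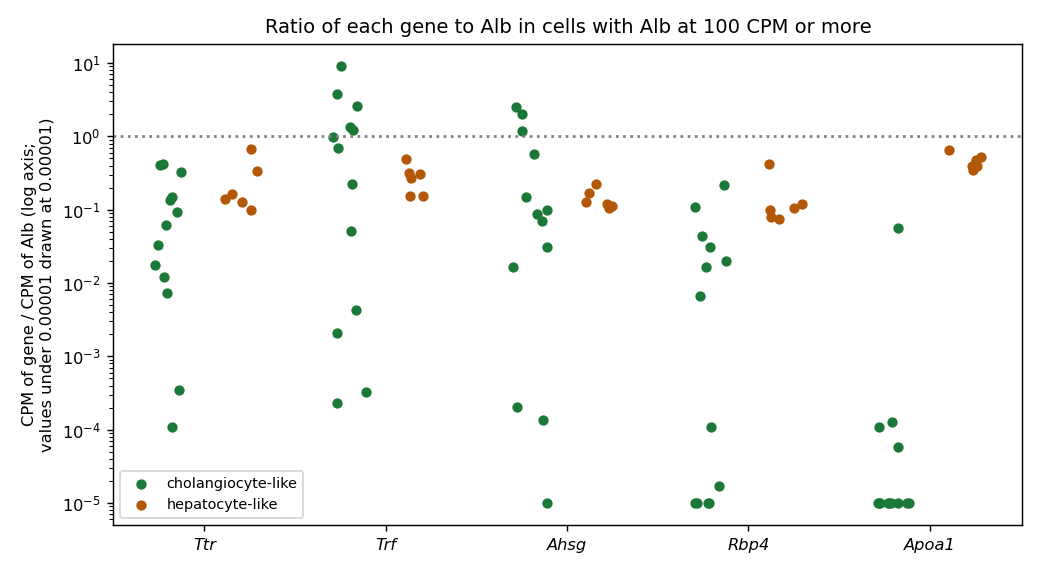
CPM of each gene divided by CPM of Alb on a log axis, in the 13 cholangiocyte-like cells with Alb at 100 CPM or more and the 6 hepatocyte-like cells; ratios under 0.00001 are drawn at that value and the dotted line marks equality. Trf lay above the hepatocyte-like range in 7 of 13 cells and Ahsg in 4, while Apoa1 lay below it in all 13.

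Levels of different genes were compared after division by transcript length, in CPM per kilobase, using the 1 main transcript of each gene and assuming even coverage. In cholangiocyte-like cells the medians were 741 for Alb, 220 for Ttr, 94.8 for Trf, 0.444 for Ahsg and 0.126 for Rbp4. In hepatocyte-like cells they were 13289 for Alb, 5516 for Ttr, 3857 for Rbp4, 2211 for Ahsg and 2069 for Trf. In hepatocyte-like cells Alb was above Trf, Ahsg and Rbp4 in 6 of 6 cells and above Ttr in 5, so its first place held in all but 1 cell. Below Alb the neighbours in that order did not keep it in every cell: Ttr was above Rbp4 in 4 of 6, Ahsg was above Rbp4 in 2 of 6 and Trf was above Ahsg in 3 of 6. In the cholangiocyte-like cells Alb was above Rbp4 in 17 of 22 and above Trf in 9, so the medians of Alb and Trf do not give an order that most cells followed.

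Hepatocyte markers other than plasma proteins helped to form the classes, so their low number in cholangiocyte-like cells follows from the clustering and is given as a description of the cells that held carriers. Of 34 measured hepatocyte markers that are not plasma proteins, a cholangiocyte-like cell had a median of 0.5 at 100 CPM (range 0 to 4), against 24.5 (range 19 to 31) in hepatocyte-like cells. The summed level of the 34 genes was 0.209 to 4288 CPM in cholangiocyte-like cells and 15861 to 44751 CPM in hepatocyte-like cells. Cell 14, with all 5 carriers, had none of the 34. Cell 30 had 4 and cell 31 had 3. Fah, an enzyme of tyrosine breakdown, reached 100 CPM in cholangiocyte-like cells 23, 27 and 30, and the alcohol dehydrogenase Adh1 did so in cells 30 and 31. Fabp1, the liver fatty acid binding protein, was at most 0.519 CPM in the 22 cells, against 6207 CPM at the median of hepatocyte-like cells, and it is 1 of the 34. The apolipoprotein genes took no part in the clustering. Apoa2 was at most 4.72 CPM in the 22 cells, against a hepatocyte-like median of 7583 CPM, and Apoc3 was at 0 in all 22, against 2779 CPM. Apoa1 was at 0 in 17 of the 22 and highest at 95.01 CPM in cell 31, against a hepatocyte-like median of 12087 CPM.

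**Figure D4:**
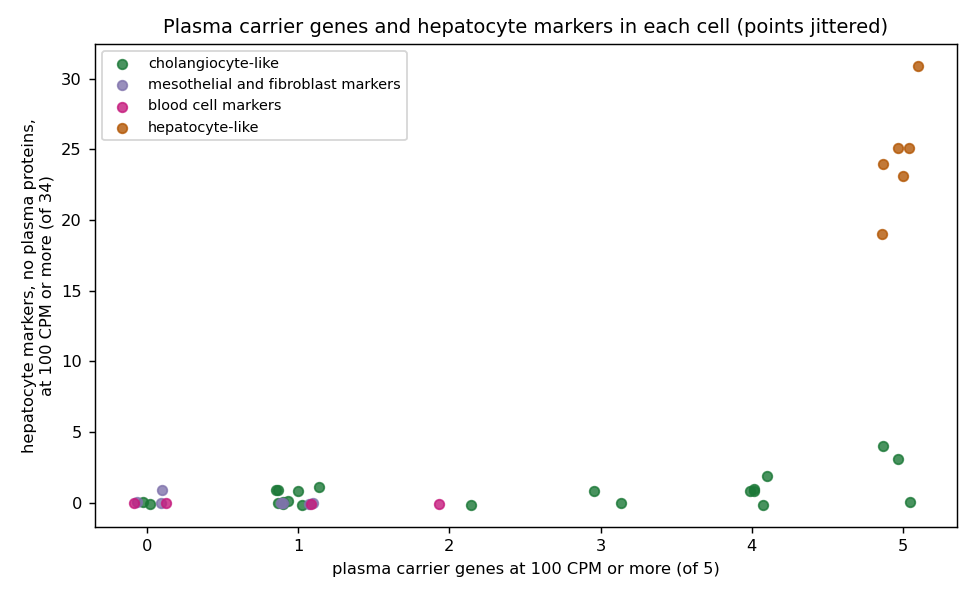
Number of the 5 carrier genes (x axis) and of 34 hepatocyte markers without plasma proteins (y axis) at 100 CPM or more in each cell, with points jittered and coloured by class. Cholangiocyte-like cells with 4 or 5 carriers had 0 to 4 of the hepatocyte markers, whereas the 6 hepatocyte-like cells had 19 to 31, a gap that follows from clustering on these markers.

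The carriers were also set beside duct genes in the same 22 cells. Krt19 was at 100 CPM in 11 of them and Trf in 12, and both were at that level in 3. The Spearman coefficient was -0.78 for Trf and Krt19, -0.45 for Ahsg, -0.43 for Alb, -0.35 for Rbp4 and -0.04 for Ttr. Krt19 was listed at 0 in cells 15, 16, 17, 26, 30 and 31, and its highest level, 20676 CPM, was in cell 24, which held none of the 5 carriers at 100 CPM. Spp1, the matrix protein osteopontin, was at 100 CPM in all 22 cells, with coefficients of 0.74 for Trf, 0.57 for Alb, 0.39 for Rbp4, 0.37 for Ahsg and 0.16 for Ttr. Sox9, which encodes a biliary transcription factor, reached 100 CPM in 8 cells and had coefficients between -0.22 for Ttr and 0.44 for Ahsg. Krt7, a duct keratin, reached it in 9 and had coefficients between -0.57 for Ahsg and -0.25 for Alb. Epcam, an adhesion protein of duct epithelium, reached 100 CPM in 6 cells and had coefficients between -0.63 for Ahsg and -0.24 for Trf. All 5 duct genes helped to form the class, and the coefficients describe spread inside it. Krt19 was not particular to the class, since it reached 100 CPM in 4 of 7 cells with mesothelial and fibroblast markers too.

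Alb levels differed between runs of cell numbers. When the same markers were clustered by average linkage, 6 clusters formed, and cells 5 to 13 made up 1 of them and cells 14 to 23 another. Alb was listed at 0 in 9 of 9 cells numbered 5 to 13, and it was above 0 in 10 of 10 numbered 14 to 23, of which 8 reached 100 CPM. Ahsg reached 100 CPM in 0 of 9 cells numbered 5 to 13 and in 5 of 10 numbered 14 to 23, Rbp4 in 0 of 9 and 2 of 10, and Trf in 2 of 9 and 7 of 10. Ttr did so in 4 of 9 and in 5 of 10. Cells 5 to 13 include 4 cholangiocyte-like cells and 5 of the 7 with mesothelial and fibroblast markers. The 4 cholangiocyte-like cells are numbers 9, 11, 12 and 13, in which Ttr alone of the carriers was at 100 CPM. The labels give no plate or run, and the part of such a batch in the levels was not tested.

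Other plasma protein genes were shared with duct cells in part. Of 70 further plasma protein genes measured, 52 reached 100 CPM in at least 4 of 6 hepatocyte-like cells, 17 did so in at least 4 of 22 cholangiocyte-like cells and 16 did both. Of all 438 genes at 100 CPM in at least 4 hepatocyte-like cells, 54.1% were also at that level in at least 4 cholangiocyte-like cells, beside 16 of the 52 plasma protein genes. All 5 carriers passed both, by the way they were chosen. Another 21 of the 52 reached 100 CPM in 0 of 22 cholangiocyte-like cells, which allows a share of up to 15.4% of such cells by the exact interval. The share of all 438 genes at 0 of 22 was not worked out. The count of 21 is therefore not read as a trait of plasma protein genes.

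Among 12 other carriers, 10 passed in hepatocyte-like cells and 5 of these passed in cholangiocyte-like cells too. Sepp1, the selenium carrier, reached 100 CPM in 16 of 22 cholangiocyte-like cells, Cp, the copper protein ceruloplasmin, in 14, Ambp, the precursor of alpha-1-microglobulin and bikunin, in 13, Gc, which binds vitamin D, in 8, and Hp, which binds haemoglobin, in 6. Cp had a median of 1278 CPM in cholangiocyte-like cells and 200.1 CPM in hepatocyte-like cells. The other 5, Hpx, Apoh, Fetub, Orm1 and Orm2, reached it in 3, 1, 0, 0 and 0. Orm1, an acute phase glycoprotein, was at most 0.0642 CPM in the 22 cells, against 1241 CPM at the hepatocyte-like median.

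Among 11 apolipoproteins, 8 passed in hepatocyte-like cells and 2 of these in cholangiocyte-like cells, Apoe in 12 and Apoc1 in 5. Apob, the large protein of very-low-density lipoprotein, was the 1 gene of the 70 that passed in cholangiocyte-like cells alone, in 9 of 22 against 1 of 6 hepatocyte-like cells. Its highest value was 10319.5 CPM in cholangiocyte-like cells and 117 CPM in hepatocyte-like cells. Apoa1, Apoa2, Apoa5, Apoc3 and Apoc4 reached 100 CPM in 0 of 22, and Apom in 1.

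Of 18 protease inhibitors, 15 passed in hepatocyte-like cells and 4 of these also in cholangiocyte-like cells: Serping1, the C1 inhibitor, and Itih2, a hyaluronan-binding heavy chain, in 8 each, Serpina1c in 6 and Serpina1b in 4. The Serpina1 genes are near-identical copies, so their reads may be divided wrongly among them. Of 13 clotting genes, 7 passed in hepatocyte-like cells and 0 in cholangiocyte-like cells, where the fibrinogen chains Fga, Fgb and Fgg were at 100 CPM in 3, 2 and 1 cells. Of 16 complement and acute phase genes, 12 passed in hepatocyte-like cells and 5 of these also in cholangiocyte-like cells, namely C3 in 16, Cfb in 8, Cfi in 5, and C4b and C4bp in 4 each. Saa1 and Saa2, the serum amyloid A proteins, reached 100 CPM in 0 of 22 and in 6 of 6 hepatocyte-like cells.

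**Figure D5:**
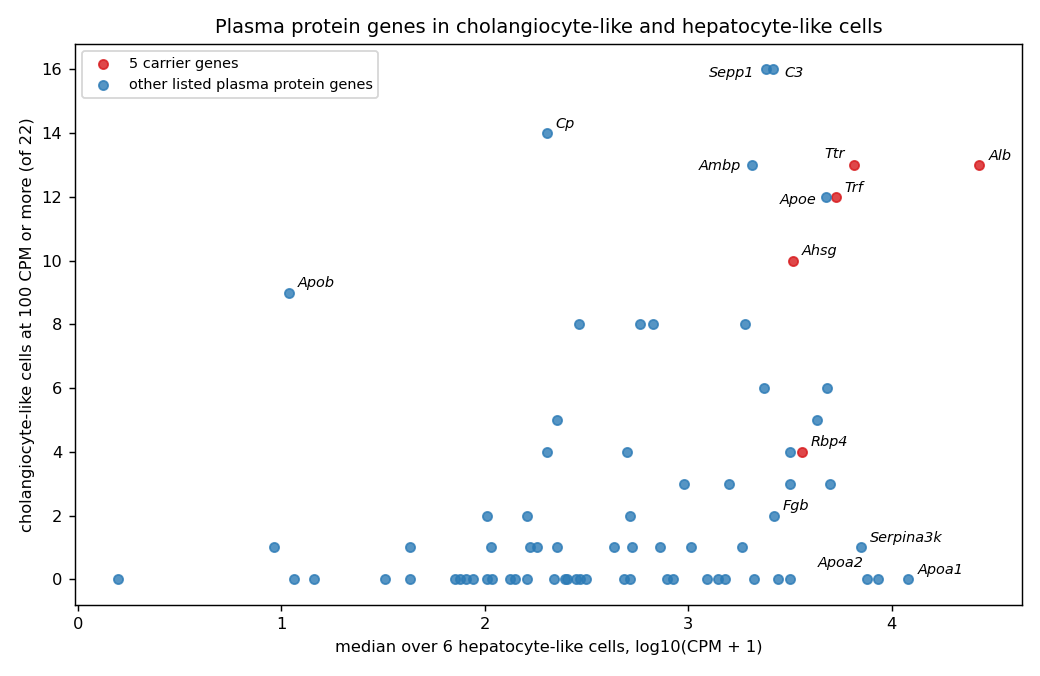
For each listed plasma protein gene, the number of the 22 cholangiocyte-like cells at 100 CPM or more (y axis) against the median over the 6 hepatocyte-like cells as log10(CPM + 1) (x axis), with the 5 carriers in red. A high hepatocyte-like level went with many duct cells for Alb, in 13, and with 0 for Apoa1 and Apoa2.

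Genes at high level in hepatocyte-like cells differed in how many duct cells held them. Of 83 genes with a hepatocyte-like median of 1000 CPM or more, 50.6% reached 100 CPM in at least 4 cholangiocyte-like cells, and the median gene did so in 4. Alb, Ttr, Trf and Ahsg were at that level in 13, 13, 12 and 10 cells and Rbp4 in 4. Over all genes, 2.87% reached 100 CPM in at least 10 cholangiocyte-like cells. That share was not worked out for the 83 genes. Because the carriers were chosen on these values, the median and the shares are given for scale only.

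The pattern of the carriers over duct cells was compared with that of other genes. Each gene at 100 CPM in at least 5 of the 22 cholangiocyte-like cells was ranked by its Spearman coefficient with the mean log2(CPM + 1) of the 5 carriers, over those cells. Of 1175 genes ranked, with a median of -0.04, the 5 highest were Itih2 at 0.86, Cp at 0.82, Apoe at 0.78, Serpina1c at 0.75 and Fosb, an immediate early gene, at 0.73. The first 4 of these are on the plasma protein lists, which hold 1.19% of the genes ranked. The carriers and the lists were chosen with earlier results of these data known. Shares of the lists are therefore given for scale only, here and over all 39 cells. The carriers themselves had coefficients of 0.81 for Ahsg, 0.77 for Alb, 0.75 for Trf, 0.71 for Rbp4 and 0.38 for Ttr with that mean, of which each is part. Over all 39 cells, 885 genes at 100 CPM in at least 10 of them were ranked. The 5 highest were Itih2 at 0.86, Apoe and Serpina1c at 0.76 each, Ambp at 0.67 and Hpx at 0.66. All of them are on those lists, which hold 1.92% of the genes ranked there. The carriers were at 100 CPM in 6 of 6 hepatocyte-like cells, as were Apoe, Serpina1c, Ambp and Hpx, with Itih2 in 5. The ranking over 39 cells therefore follows in part the difference between classes, and no likeness inside duct cells is read from it.

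Partners of the carriers were measured as well. Of 10 iron genes, the ferritin chains Ftl1 and Fth1 reached 100 CPM in 21 and 18 of 22 cholangiocyte-like cells and in 6 of 6 hepatocyte-like cells, and Slc40a1, the iron exporter ferroportin, did so in 4 and in 0. Tfrc, the transferrin receptor, reached it in 2 and in 0. Among 9 retinoid genes, the retinal reductase Dhrs3 did so in 8 cholangiocyte-like cells and in 0 of 6 hepatocyte-like cells, whereas the retinal dehydrogenase Aldh1a1 did so in 1 and in 5. Of 3 albumin partners, B2m, a subunit of the receptor that recycles albumin, was at 100 CPM in 18 and in 6, and Fcgrt, its heavy chain, in 1 and in 0.

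Of 15 transcription factors known from hepatocytes and bile ducts, 5 reached 100 CPM in at least 4 cholangiocyte-like cells and 0 did so in at least 4 hepatocyte-like cells, beside 17.5% and 4.35% of all genes. With 15 genes, a count of 0 is close to what the second share gives, so no difference between the classes is read from it. Onecut2 did so in 17 of 22 and in 3 of 6 hepatocyte-like cells, Hhex in 8 and in 2, and Hnf4a, which is known to act on many of the genes described here, in 4 and in 3. Foxa1 and Prox1 each did so in 4 and in 0.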

How the data were processed

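Single-cell RNA-seq values of 39 cells were deposited as log2 values for 13568 RefSeq transcripts. The submitters' processing notes name the mm9 build and the tools Bowtie (0.12.9), eXpress (1.5.1) and edgeR (version not listed). Their order and settings are not given in the sources used here. The values themselves gave the scale and base. The lowest log2 value, -2.58, was read as 0 reads, and linear values were had by raising 2 to each value and subtracting 0.167. The result is called CPM here. The values of a cell summed to 351255 to 3128332 and were used as deposited, with a median of 2985 genes at 1 CPM or more in a cell. Low values followed whole multiples of 1 read, within 2% of a read, for 34.5% to 55.1% of low values in 37 cells. By that step, 116 of 120 values of the 5 genes above 0 were whole numbers of reads within 0.01 read. No molecular identifiers are named, so reads are not counted as molecules.

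Transcripts of a symbol were summed. Cells were clustered by Ward linkage on log2(CPM + 1) of 94 of 127 listed markers, with k between 2 and 6, at least 3 cells a cluster and the highest silhouette. That gave 2 clusters, and the 4 used here were chosen after seeing the data, as was the use of the 33 cells outside the hepatocyte-like class as the planned duct-like class. The members and lists were chosen with earlier results of these data known. Genes were named if they were members, ranked among the 5 most like them, served as a check of a class, or were listed and reached 100 CPM in at least 4 cholangiocyte-like or 4 hepatocyte-like cells. Other listed genes, among them Tfrc, Fcgrt, Krt19, Sox9, Krt7 and Epcam with their coefficients, were named after their values were seen. A few listed genes are not reported here. Lengths came from GENCODE transcripts of GRCm38, which matched 8 of 9 member transcripts. Intervals are exact Clopper-Pearson at 95%. No animal is named, so no test, p-value or standard error was made. No doublet caller was run and no cell was removed. Clustering and the likeness ranking were tested on simulated data. Python 3.11.15, numpy 2.4.6, pandas 2.3.3, scipy 1.17.1 and matplotlib 3.10.9 were used. Alternatives were another level, scaling, transcript choice, linkage, marker set, number of clusters, pseudocount and coefficient, and leaving out cells 38 and 39.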

Additional observations from a re-analysis of the deposited data

How the results depend on the processing

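Of 57 alternative values over 8 results, 53 stayed within the counting interval or the spread of the pairwise coefficients. The number reversed was 0, but a count of cells has no direction that could reverse. The 4 values outside those limits were these. At a level of 1000 CPM, 10 of 39 cells held Ttr, against 19 at 100 CPM, and 16 held Trf, against 24. At 1 CPM 33 cells held Trf. With average linkage the cluster richest in duct markers had 10 cells, of which 6 held 3 or more carriers, against 10 of 33 by the planned clustering. That linkage did not keep the 22 cholangiocyte-like cells together. Cells 24, 25 and 28 fell with cells 29 and 32, which had blood cell markers. Cell 34 fell with cells 33, 35, 36 and 37, and cells 26, 27, 30 and 31 stood apart. Counts over the 22 cells therefore depend on the clustering used. The median pairwise Spearman coefficient was 0.47 over the 33 cells and 0.52 over the 22, and the Pearson coefficient over the 33 had a median of 0.52. Another pseudocount cannot change a rank coefficient, and the highest transcript in place of the sum cannot change Alb, Ttr or Trf, each with 1 transcript. Leaving out cells 38 and 39, both hepatocyte-like, cannot change a count over the 33 cells outside that class. The overlap of levels between classes was not among the 8 results, so its dependence on scaling was not tested. No paired analysis was possible because the labels give 1 group with no replicate number shared between groups. Depth limits low values: in cells 38 and 39 it is unknown, and elsewhere a value of 0 is listed at 0 and does not show absence.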

Other observations

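The 7 cells with mesothelial and fibroblast markers held other plasma protein genes while Alb, Ttr, Ahsg and Rbp4 were near 0 there. C3, the central complement protein, reached 100 CPM in 7 of 7, Serping1 and Cfb in 6 each and C4b in 3. Aldh1a2, which makes retinoic acid, reached 100 CPM in 4 of the 7, in 0 of 22 cholangiocyte-like cells and in 0 of 6 hepatocyte-like cells. Among carriers outside the 5, Sepp1 was at 100 CPM in 3 of the 7 and Cp in 2. These genes were picked from the lists after their values were seen, and no difference between the classes was tested.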
